A study of Homo sapiens with 6 samples.

Results

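HCC827ER, an EGFR-inhibitor-resistant derivative of the human lung adenocarcinoma line HCC827, was set against its parental line. The pair takes 2 of the 6 libraries of the series, 1 per line, and the library of each line was found from the labels and the column names. The deposited counts came in 2 tables, with HCC827 in the first (16854 genes) and HCC827ER in the second (16306 genes), and the 16000 genes listed in both were compared by gene ID.

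The series profiled total RNA, after removal of ribosomal RNA with a stranded kit, from cultured lines that had become resistant to EGFR tyrosine kinase inhibitors and from their parents, to look for signalling pathways behind the resistance. The resistant lines are HCC827ER, HCC827GR, PC-9ER and PC-9GR, and the parental lines are HCC827 and PC-9. HCC827ER and HCC827 were both grown in RPMI-1640 with serum and antibiotics. The labels do not spell out ER or GR, name no inhibitor or dose for either library, and do not say whether HCC827ER is a clone or a pool.

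EGFR is a receptor tyrosine kinase that drives the ERK cascade, which switches on early transcription factors such as EGR1 and FOS, and feedback inhibitors such as DUSP6 and SPRY4. HCC827 carries an activating EGFR deletion and extra copies of the gene, and depends on EGFR for growth. Resistance in such lines is known to come with other receptor kinases, with loss of epithelial character, or with detoxifying enzymes. Acute phase proteins, which also appear below, are plasma proteins that the liver secretes in inflammation, under IL-6 and NF-kB.

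Levels are CPM, the gene's count per 1000000 counts of the library after TMM scaling, and they do not correct for transcript length, so they compare libraries and not genes. A log2 ratio is HCC827ER over HCC827, with counts under 3 raised to 3, which corresponds to 0.211 CPM in HCC827ER and 0.197 CPM in HCC827. With 1 library per line there is no test: intervals are exact 95% intervals of a ratio of counts, cover counting error only, and say nothing of how cultures of a line vary. The libraries held 17291539 counts in HCC827ER and 14529331 in HCC827. Ribosomal protein genes took 16.3% of the counts in HCC827ER, against 8.59% in HCC827 and 5.93% to 7.74% in the other 4 libraries. The second table holds only HCC827ER and PC-9ER, so a difference between the tables and a difference between these lines and their parents cannot be told apart. The 9 epithelial markers summed to 9162 CPM in HCC827ER and 16262 CPM in HCC827. Among them NKX2-1 and SFTPB were at 0 in HCC827ER, but SFTPB had only 1 count in HCC827, where NKX2-1 had 221. Defining markers of other cells were at or near 0: leukocyte markers (4 of 6 listed) summed to 0.632 CPM in HCC827ER and 0.329 CPM in HCC827, endothelial markers (3 of 3) to 0.211 and 0.790 CPM, and fibroblast markers (4 of 6) to 3.16 and 6.71 CPM, nearly all of it COL1A1.

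Of 12646 genes with at least 1 CPM in the higher library, 2294 were at least 2-fold higher in HCC827ER and 2453 at least 2-fold lower, which is 18.1% and 19.4%. The counts of each gene list below are to be read against these shares. The median log2 ratio was 0.00, and the middle 50 percent of genes lay between -0.78 and 0.73. Large increases outnumbered large decreases: 294 genes were higher and 215 lower by 8-fold or more, and 65 were higher and 18 lower by 32-fold or more. Without the TMM factor, which moves the median of all genes by -0.34 on the log2 scale, the counts were 1449 higher and 3610 lower, so the share of higher against lower calls depends on the scaling. For comparison, the shares of higher and lower genes were 7.91% and 9.47% in HCC827GR against HCC827, 5.73% and 7.8% in PC-9ER against PC-9, and 21.9% and 20.2% in PC-9GR against PC-9.

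**Figure D1:**
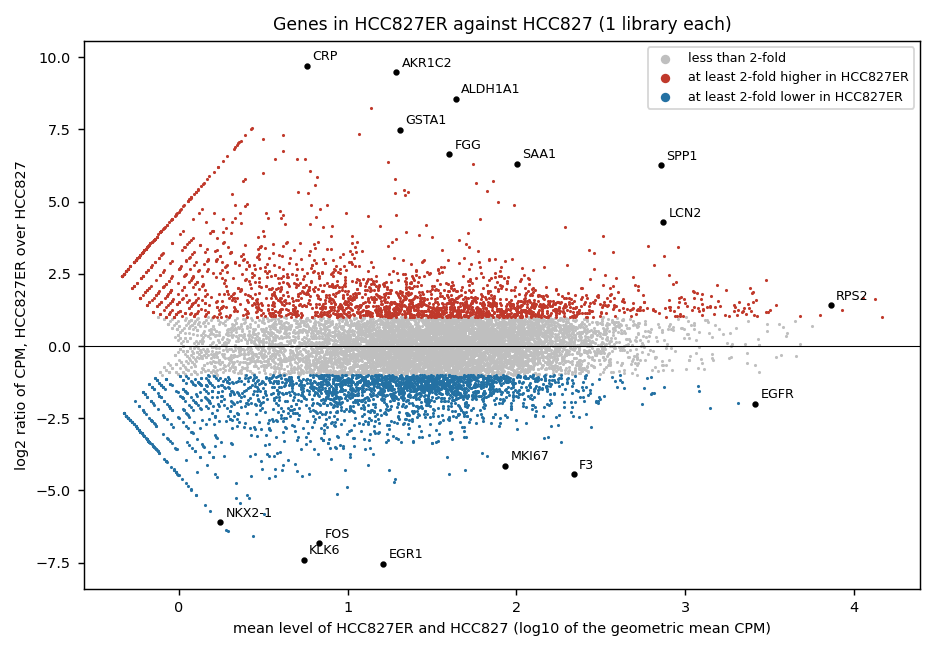
Each point is 1 of the 12646 genes: the x axis is the log10 of the geometric mean CPM of HCC827ER and HCC827, and the y axis the log2 ratio of HCC827ER over HCC827, with counts under 3 raised to 3. Genes at least 2-fold higher in HCC827ER are red (2294), genes at least 2-fold lower are blue (2453), and the labelled points reach from 9.71 for CRP to -7.54 for EGR1.

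Some genes were expressed in 1 line alone. At 10 CPM or more in HCC827ER, 17 genes had at most 3 counts in HCC827, and 3 of them, CRP, VCAM1 and UGT1A7, had none. The others include CCL2, LBP, RBP4, UGT1A6, KRT17, the apoptosis inhibitor BCL2, the leukocyte adaptor DOK2 and the exchange factor DOCK8. In the opposite direction 5 genes had at least 10 CPM in HCC827 and at most 3 counts in HCC827ER: NKX2-1, COL17A1, SERPINB5, FGFBP1 and MYEOV. Genes listed in the second table alone could not enter these counts, such as H2AC19 with 417 counts in HCC827ER.

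Plasma and acute phase proteins had the highest median of the lists examined. Of the 18 of 47 members that passed the filter, 17 were at least 2-fold higher in HCC827ER and 0 lower, with a median log2 ratio of 3.98; another 12 members were not listed in both tables and 17 were under 1 CPM in both libraries. This list was added after the values were seen, so its count describes the genes and supports nothing more. CRP (gene ID 1401, chromosome 1), C-reactive protein, had 166 CPM (2358 counts) in HCC827ER and 0 counts in HCC827, and was at least 838-fold higher. The 3 fibrinogen chains, which assemble into the clotting protein, lie side by side on chromosome 4 and were all higher. FGB had 1150 CPM in HCC827ER and 120 in HCC827, a 9.58-fold difference (95% interval 9.13 to 10.1). FGG had 399 CPM in HCC827ER and 4.02 in HCC827, 99.4-fold higher (77.3 to 130.1). FGA had 157 CPM in HCC827ER and 1.91 in HCC827, 82.2-fold higher (57.1 to 123). FGB had the smallest ratio of the 3 chains.

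The serum amyloid genes SAA1 and SAA2, which are close copies and can share reads, had 900.4 and 145 CPM in HCC827ER, against 11.3 and 3.55 CPM in HCC827. LBP, which binds bacterial lipopolysaccharide, had 520 counts in HCC827ER and 2 in HCC827, a ratio of CPM of 277 (95% interval 76.4 to 2296). The copper carrier ceruloplasmin (CP) was at 12.6 CPM in HCC827ER and 0.790 in HCC827, and SERPINA1, alpha-1 antitrypsin, at 254 and 92.8 CPM. TF (transferrin), which the liver lowers in the acute phase, was the 1 passing member below its parental level, at 16 CPM in HCC827ER and 27.8 in HCC827. In HCC827GR, which has the same parent, the ratios of these genes over HCC827 had no common direction. Their median log2 was -0.09, which is also the value of any gene under 3 counts in both libraries. The members had passed the filter on HCC827ER and HCC827 alone, and some were near the floor in HCC827GR and HCC827, such as LBP with 4 and 2 counts. The median therefore says little of the list in HCC827GR. SAA1 was at 10.6 CPM in HCC827GR and FGB at 189.9, while FGG was at 1.36 and SERPINA1 at 9.14 CPM, each more than 2-fold under HCC827, and CRP had 0.618 CPM.

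**Figure D2:**
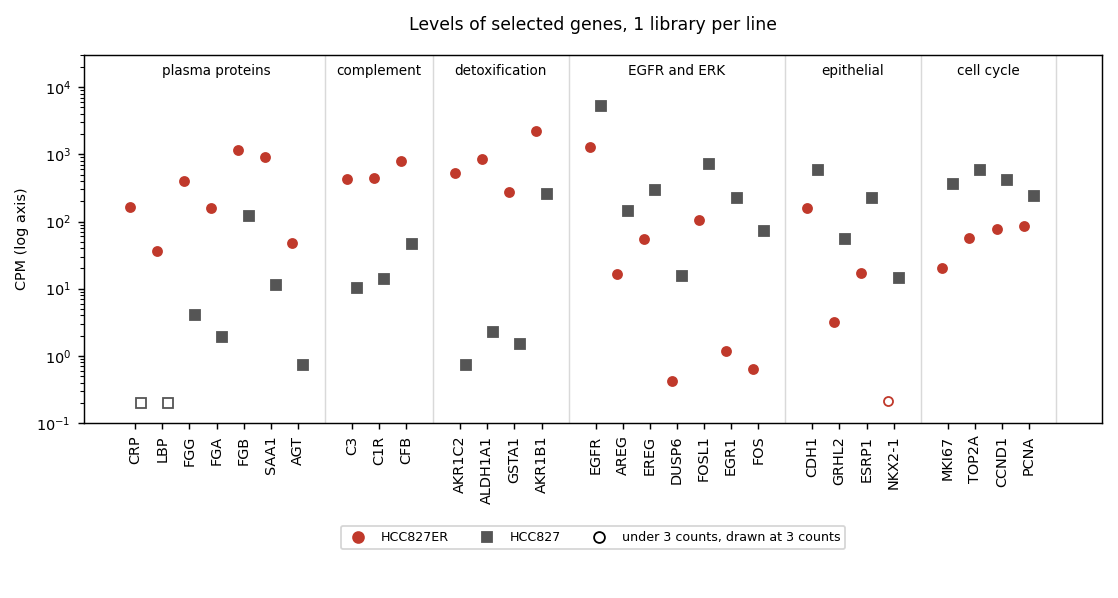
CPM on a log axis for selected genes in 6 groups, with HCC827ER as red circles left of HCC827 as grey squares, 1 library each; open symbols are values under 3 counts, drawn at 3 counts. The genes were selected with their values known, so their shared directions are no result. Those shown for plasma, complement and detoxification are higher in HCC827ER, and those for EGFR and ERK, epithelium and cell cycle are lower. Members of the same lists that went the other way, such as TF, ALDH1A3, MYC, IER3, CLDN1 and CDKN1C, are not drawn.

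The promoters of CRP and FGA are shown because these liver genes were at or near 0 in HCC827 and high in HCC827ER, and the promoter of EGR1 because it had the lowest ratio of all passing genes. Each is the 200 bases before the start of the gene in RefSeq (GRCh38.p14). Capitals mark matches to a pattern for the CArG box bound by serum response factor, a factor known to act on EGR1. This CArG pattern leaves some positions open to any base and fixes the others, so it is not the full definition of the box. It was searched in EGR1, on both strands. TTCNNNGAA, a STAT palindrome with a spacer of fixed length, was searched in CRP and FGA, also on both strands.
CRP (chr1:159714590-159714789, minus strand): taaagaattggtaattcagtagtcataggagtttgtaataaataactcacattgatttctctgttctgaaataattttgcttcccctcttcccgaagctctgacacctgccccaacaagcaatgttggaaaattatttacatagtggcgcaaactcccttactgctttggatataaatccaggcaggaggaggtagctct
FGA (chr4:154590743-154590942, minus strand): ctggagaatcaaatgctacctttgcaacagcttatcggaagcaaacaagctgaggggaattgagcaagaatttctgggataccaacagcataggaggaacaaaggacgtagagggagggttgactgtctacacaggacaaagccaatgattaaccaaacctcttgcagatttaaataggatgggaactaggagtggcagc
EGR1 (chr5:138465279-138465478, plus strand): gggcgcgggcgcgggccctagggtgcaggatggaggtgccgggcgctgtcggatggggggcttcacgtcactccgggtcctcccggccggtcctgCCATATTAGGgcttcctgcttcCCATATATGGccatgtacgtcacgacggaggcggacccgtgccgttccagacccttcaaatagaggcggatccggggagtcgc

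EGR1 held 2 matches to the CArG pattern, and the CRP and FGA windows held no match to TTCNNNGAA. STAT sites with another spacer were not searched, so the missing match does not show that these windows lack a STAT site. Over the 250 bases before the start, the CArG pattern was found in 1.38% of the higher genes, 1.28% of the lower genes, 1.39% of all passing genes and 1.31% of all promoters. These shares are those of the pattern searched and not of all CArG boxes. TTCNNNGAA stood in 7.99% of the higher genes, 8.15% of the lower genes, 7.61% of all passing genes and 8.09% of all promoters. These 2 motifs were picked after the values were seen. For the 3 motifs chosen at the start, TGACNNNGC, the core of the antioxidant response element, stood in 16.3% of the higher genes, 14.6% of the lower genes and 15.8% of all passing genes. TGANTCA, the AP-1 site, stood in 6.23% of the higher genes, 7.27% of the lower genes and 6.10% of all passing genes. CACCTG, bound by ZEB factors, stood in 22.5% of the higher genes, 22.5% of the lower genes and 21.4% of all passing genes. Over all promoters, expressed here or not, the 3 shares were 13.2%, 8.06% and 20.6%.

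Complement, the cascade of plasma proteins that tags cells and microbes, was also higher. Of 16 passing members, 12 were at least 2-fold higher in HCC827ER and 0 lower, with a median of 2.0; this list too was added after the values were seen. C3, the central component, had 426 CPM in HCC827ER and 10.4 in HCC827, 41.0-fold higher (35 to 48.3). The C1 proteases C1R and C1S had 439 and 277 CPM in HCC827ER, against 13.9 and 13.3 CPM in HCC827, and CFB, the protease of the alternative pathway, had 806 and 46.5 CPM. The soluble inhibitor CFI was at 102 CPM in HCC827ER and 28.0 in HCC827. The membrane inhibitors moved less: CD59 was at 329 CPM in HCC827ER and 193 in HCC827, CD55 at 49.7 and 32.5, and CD46 at 178 and 177.

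Of 36 passing cytokine, chemokine and NF-kB genes, 25 (69.4%) were at least 2-fold higher in HCC827ER and 2 (5.56%) at least 2-fold lower, with a median of 1.82, against 18.1% and 19.4% of all genes. CCL2, which attracts monocytes, had 441 counts in HCC827ER and 1 in HCC827, a ratio of CPM of 470.4 with a wide interval (84.0 to 18621). IL32, an inflammatory cytokine, was at 405 CPM in HCC827ER and 8.16 in HCC827, 49.6-fold higher (41.5 to 59.7). Neutrophil-attracting chemokines were higher: CXCL5 had 853 CPM in HCC827ER and 85.4 in HCC827, CXCL8 116 and 8.56, and CXCL1 100.1 and 6.91. LCN2, which binds bacterial iron carriers, was at 3268 CPM in HCC827ER and 7.97 in HCC827GR, against 168 in HCC827, so the derived lines stood on opposite sides of the parent. The adhesion molecule ICAM1 was at 762 CPM in HCC827ER and 209 in HCC827. NFKBIA, the NF-kB inhibitor that NF-kB itself induces, was at 196 and 77.0 CPM, whereas TNFAIP3, another such inhibitor, was lower in HCC827ER, at 10.7 CPM against 21.4 in HCC827.

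The IL-6 pathway, a list added after the values were seen, had 9 of 32 passing members at least 2-fold higher in HCC827ER and 4 at least 2-fold lower, with a median of 0.52. IL6 itself was at 31.9 CPM in HCC827ER and 11 in HCC827, 2.91-fold higher (2.43 to 3.49). Of the factors that act on acute phase genes, CEBPB and CEBPD were at least 2-fold higher and STAT3 was not: CEBPB was at 252 CPM in HCC827ER and 62.3 in HCC827, CEBPD at 239 and 47.5, and STAT3 at 268 and 165. The feedback inhibitor SOCS3 was at 56.2 CPM in HCC827ER and 22.6 in HCC827. The receptor subunits went the other way by less than 2-fold, with IL6ST at 81.5 CPM in HCC827ER and 99.9 in HCC827, and IL6R at 19.7 and 28.0.

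Genes typical of liver and kidney tubule, the last of these added lists, had 19 of 21 passing members at least 2-fold higher in HCC827ER and 0 lower, with a median of 3.68. FXYD2, a subunit of the kidney sodium pump, was at 492 CPM in HCC827ER and 6.19 in HCC827, 79.5-fold higher (64.9 to 98.5). CLDN2, a claudin that forms cation channels in the proximal tubule, was at 526 CPM in HCC827ER and 17.8 in HCC827, 29.5-fold higher (26.1 to 33.4). NR1H4, the bile acid receptor FXR, had 535 counts in HCC827ER and 4 in HCC827. VNN1, a pantetheinase, was at 164 CPM in HCC827ER and 12.8 in HCC827. In HCC827GR against HCC827 the list had a median of 2.01, with 17.9 CPM of FXYD2, 71.8 CPM of CLDN2 and 13.2 CPM of NR1H4 in HCC827GR and 4.70 CPM of VNN1, which was below its parental level.

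Among secreted proteins, SPP1 (osteopontin) showed one of the 8 largest gains in CPM, with 6265 CPM in HCC827ER and 81.7 in HCC827, 76.7-fold higher (72.5 to 81.2). IGFBP7, which binds insulin-like growth factors, was at 238 CPM in HCC827ER and 0.790 in HCC827, 301-fold higher (172 to 583). The calcium-dependent membrane-binding protein ANXA6 had 387 counts in HCC827ER and 2 in HCC827.

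Detoxifying enzymes also had high ratios. Of 19 passing aldo-keto reductases and aldehyde dehydrogenases, 10 were at least 2-fold higher in HCC827ER and 1 at least 2-fold lower, with a median of 1.04. AKR1C2, which reduces steroids and carbonyls, was at 520.3 CPM (7410 counts) in HCC827ER and 0.724 CPM (11 counts) in HCC827, 719-fold higher (401 to 1440). AKR1C1 and AKR1C2 are near copies that can share reads, and AKR1C1 was at 47.4 CPM in HCC827ER and 0.527 in HCC827. The aldose reductase AKR1B1 was at 2211 CPM in HCC827ER and 253 in HCC827. ALDH1A1, which makes retinoic acid and is used as a marker of tumour-initiating cells, was at 847 CPM in HCC827ER and 2.24 in HCC827, 378-fold higher (271 to 547). Its relative ALDH1A3 was the 1 member at least 2-fold lower, at 44.9 CPM in HCC827ER and 287 in HCC827, 6.39-fold lower (5.88 to 6.95). The 2 ALDH1A genes, which make the same product, thus differed in opposite directions.

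NRF2 is the transcription factor of the oxidative stress response, and 16 of 37 passing target and glutathione genes were at least 2-fold higher in HCC827ER and 2 at least 2-fold lower, with a median of 0.80. Centred on genes of like transcript length, as described below, 12 were higher and 1 lower, with a median of 0.43. The glutathione transferases GSTA1 and GSTA2, near copies that can share reads, were at 272 and 149 CPM in HCC827ER, against 1.51 and 0.922 CPM in HCC827. HMOX1, heme oxygenase, was at 112 CPM in HCC827ER and 20.8 in HCC827. Other well-known NRF2 targets differed by less than 2-fold or were lower: NQO1 was at 648 CPM in HCC827ER and 415 in HCC827, TXNRD1 at 797 and 767, GCLC at 17.6 and 27.7, and SLC7A11 at 5.83 and 14.

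Drug-handling genes were split, with 9 of 23 passing members higher and 8 lower by at least 2-fold. UGT1A6 and UGT1A7, enzymes that add glucuronic acid, had 524 and 267 counts in HCC827ER, against 1 and 0 counts in HCC827. The UGT1A genes share all but their first exon, so reads cannot be assigned to 1 of them with certainty. The efflux pump ABCB1 (P-glycoprotein) was at 57.4 CPM in HCC827ER and 15.3 in HCC827, 3.76-fold higher (3.25 to 4.37), and HCC827GR had 78.8 CPM. The pump ABCG2 was lower, at 0.492 CPM in HCC827ER and 6.91 in HCC827, as was ABCC2, at 47.0 and 133 CPM.

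EGFR (gene ID 1956, chromosome 7) was at 1299 CPM in HCC827ER, 585 in HCC827GR and 5213 in HCC827. In HCC827ER it was 4.01-fold lower than in HCC827 (3.95 to 4.08), the largest loss in CPM of any gene. Of 16 passing members of the EGFR family, its ligands and its regulators, 0 were at least 2-fold higher in HCC827ER and 8 at least 2-fold lower, with a median of -1.02. Centred on genes of like transcript length, as described below, that median was -0.23 and EGFR was at -1.20. The ligand AREG (amphiregulin) was at 16.5 CPM in HCC827ER and 146 in HCC827, 8.83-fold lower (7.71 to 10.1), and EREG (epiregulin) at 55.0 and 298 CPM. The co-receptor ERBB3 was at 78.1 CPM in HCC827ER and 78.3 in HCC827, a ratio of 0.997 (0.918 to 1.08), and ERBB2 at 85.2 and 112 CPM. ERRFI1, an inhibitor of EGFR that its signalling induces, was at 61.8 CPM in HCC827ER and 255 in HCC827.

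Genes of ERK output were lower, and included the gene with the lowest ratio. Of 26 members, all of which passed, 12 were at least 2-fold lower in HCC827ER and 2 at least 2-fold higher, with a median of -0.95. EGR1, whose promoter is shown above, had 1.19 CPM (17 counts) in HCC827ER and 222 CPM (3367 counts) in HCC827, 186-fold lower (116 to 319). FOS, an AP-1 subunit, had 0.632 CPM in HCC827ER and 72.2 in HCC827, 114-fold lower (60.0 to 251). FOSL1, another AP-1 subunit, was at 105 CPM in HCC827ER and 723 in HCC827. The ERK phosphatase DUSP6 had 6 counts in HCC827ER and 231 in HCC827, 36.1-fold lower (16.3 to 99.4). Cyclin D1 (CCND1) was at 77.9 CPM in HCC827ER and 412 in HCC827. Other members were not lower: MYC was at 516 CPM in HCC827ER and 381 in HCC827, KLF6 at 125 and 85.2, and IER3, also an NF-kB target, at 184 and 81.1.

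Of 22 passing members among other receptor kinases, 4 (18.2%) were at least 2-fold higher in HCC827ER and 9 (40.9%) at least 2-fold lower. Over all genes the shares were 18.1% and 19.4%, so the higher share was that of all genes. The list median was -0.20, and 0.39 centred on transcript length. MET, the hepatocyte growth factor receptor and a known bypass of EGFR, was at 115 CPM in HCC827ER and 589.7 in HCC827, 5.14-fold lower (4.87 to 5.42). FGFR1 was higher, at 166 CPM in HCC827ER and 35.2 in HCC827, 4.71-fold (4.28 to 5.18), and HCC827GR had 256 CPM. AXL, a receptor often raised in mesenchymal resistant cells, was at 67.8 CPM in HCC827ER and 24.2 in HCC827, and the insulin receptor INSR at 26.8 and 6.98. IGF1R was level, at 30.8 and 30.7 CPM. MERTK, MST1R and EPHA1 were each at least 4-fold lower, with 3.58, 9.48 and 2.04 CPM in HCC827ER, against 20.7, 40.9 and 14.4 CPM in HCC827.

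The ligands of these receptors were likewise mixed, with 7 of 24 passing members higher and 6 lower by at least 2-fold. PROS1, a ligand of AXL and its relatives, was at 125 CPM in HCC827ER and 41.7 in HCC827, and GAS6, the other AXL ligand, at 16.1 and 30.3. FGF5 was at 12.1 CPM in HCC827ER and 3.55 in HCC827, while FGF2 was level at 23.3 and 22.9. FGFBP1, which releases FGFs from the matrix, had 3 counts in HCC827ER and 263 in HCC827. The ephrin EFNA1 was higher, at 124 CPM in HCC827ER and 17 in HCC827, and the ephrin EFNB2 lower, at 5.48 and 43.1.

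Epithelial genes were lower. Of 39 passing genes of junctions and epithelial identity, 25 (64.1%) were at least 2-fold lower in HCC827ER and 1 at least 2-fold higher, with a median of -1.62. E-cadherin (CDH1) was at 156 CPM in HCC827ER and 589.6 in HCC827, 3.77-fold lower (3.60 to 3.95). Regulators of the epithelial state were lower as well: GRHL2 was at 3.16 CPM in HCC827ER and 55.3 in HCC827, the splicing factor ESRP1 at 17.3 and 224, OVOL1 at 1.54 CPM in HCC827ER and 18.3 in HCC827, and EHF at 10.4 and 88.5. The surface antigen EPCAM was at 129.8 CPM in HCC827ER and 440.3 in HCC827. CLDN1 was the exception, at 192 CPM in HCC827ER and 24.4 in HCC827, 7.87-fold higher (7.06 to 8.79). Of the other claudins listed, CLDN3 was at 52.8 CPM in HCC827ER and 36.7 in HCC827, CLDN4 at 215 and 325, and CLDN7 at 64.8 and 225.

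The simple keratins KRT8 and KRT18 differed by less than 2-fold, at 4049 and 3064 CPM in HCC827ER and 5125 and 3944 CPM in HCC827. KRT7 and KRT19 were lower, at 1039 and 708 CPM in HCC827ER, against 4056 and 2065 CPM in HCC827. KRT17, a keratin of basal and stressed epithelium, had 209 counts in HCC827ER and 3 in HCC827, while its close relative KRT16 was lower, with 36 and 430 counts.

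Of 23 passing mesenchymal genes, 12 were at least 2-fold higher in HCC827ER and 1 at least 2-fold lower, with a median of 1.01. Centred on transcript length, 11 were higher and 2 lower, with a median of 0.64. Vimentin (VIM), the mesenchymal intermediate filament, was at 878 CPM in HCC827ER and 93.7 in HCC827, 9.37-fold higher (8.87 to 9.90), and HCC827GR had 860.0 CPM. MYL9, a myosin light chain of contractile cells, was at 96.1 CPM in HCC827ER and 14.4 in HCC827, and the collagen cross-linking enzyme LOX at 12.8 and 2.37. Of the repressors of E-cadherin, ZEB2 was at 6.32 CPM in HCC827ER and 0.395 in HCC827, ZEB1 at 9.90 and 6.12, SNAI2 at 15.6 and 24.7, and SNAI1 at 5.55 and 14.9. These 4 factors therefore did not share a direction. Fibronectin (FN1) differed by less than 2-fold, at 174 CPM in HCC827ER and 139.7 in HCC827.

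Some genes that anchor epithelium to its basement membrane were lower; these were picked after their values were seen. The laminin chains LAMA3 and LAMB3, which hold epithelium to the basement membrane, were at 30.5 and 114 CPM in HCC827ER, against 206 and 441 CPM in HCC827. COL17A1, the hemidesmosome collagen, had 3 counts in HCC827ER and 273 in HCC827. The laminin-binding integrin chain ITGA6 was at 30.9 CPM in HCC827ER and 171 in HCC827, and its partner ITGB4 at 68.7 and 116, less than 2-fold apart. ITGA3 and ITGB1, which also form a laminin receptor, were at 749.6 and 1317 CPM in HCC827ER, against 793 and 1588 CPM in HCC827. COL12A1, a fibril-associated collagen, was higher, at 134 CPM in HCC827ER and 3.55 in HCC827, 37.8-fold (28.9 to 50.5), and HCC827GR had 199 CPM. Over the matrix list, whose transcripts are long, 6 of 30 passing genes were higher and 14 lower by at least 2-fold (median -0.80), and 8 and 9 (median -0.24) when centred on transcript length.

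Lung lineage genes were mostly lower, with 14 of 25 passing members at least 2-fold lower in HCC827ER and 6 at least 2-fold higher (median -1.15). NKX2-1, the lung lineage factor, had 0 counts in HCC827ER and 221 in HCC827, and was at least 69.1-fold lower. SOX9 was at 0.351 CPM in HCC827ER and 13.6 in HCC827, and the mucin MUC16, source of the CA-125 antigen, at 11.2 and 219. ABCA3, the lipid pump of alveolar cells, was an exception, at 139.9 CPM in HCC827ER, 107 in HCC827GR and 3.29 in HCC827. Among the genes outside the list, 3 epithelial ones with very low ratios were picked after their values were seen. The secreted protease KLK6 had 6 counts in HCC827ER and 1082 in HCC827, the receptor ADGRF1 4 and 410, and SCEL, a cornified envelope protein, 21 and 774.

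The Hippo pathway, named in the title of the series, restrains the coactivators YAP1 and WWTR1 (TAZ). Both were lower in HCC827ER: YAP1 was at 48.5 CPM against 113 in HCC827, 2.33-fold (2.13 to 2.54), and WWTR1 at 123 CPM against 217 in HCC827, 1.76-fold (1.66 to 1.87). Centred on transcript length, the log2 ratios were -0.89 and -0.48. The kinases STK4 and LATS1 were at 23.3 and 8.43 CPM in HCC827ER, against 53.6 and 17.1 CPM in HCC827. Both kinases were picked after their values were seen, and their centred ratios are not given here. The commonly read target genes did not share a direction: ANKRD1 was at 116 CPM in HCC827ER and 11.5 in HCC827, CCN1 at 981 and 1712, and CCN2 at 2.74 and 29.8. F3, tissue factor, was lower by a wide margin, at 47.1 CPM in HCC827ER and 1016 in HCC827, 21.6-fold (20 to 23.3), as was NT5E (CD73), the enzyme that makes adenosine, at 8.57 and 186 CPM. Over the 31 passing genes of the pathway and its targets, 4 were at least 2-fold higher in HCC827ER and 10 at least 2-fold lower, with a median of -0.39. Centred on transcript length, 5 were higher and 7 lower, with a median of -0.33. TFF3, also named in the title, has no value for HCC827ER here and was not analysed.

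Most cell cycle genes were lower. Of 40 passing members, 29 (72.5%) were at least 2-fold lower in HCC827ER and 1 at least 2-fold higher, with a median of -1.48, or -1.61 centred on transcript length. The proliferation antigen MKI67 was at 20.4 CPM in HCC827ER and 359 in HCC827, 17.6-fold lower (15.7 to 19.9), and TOP2A, a topoisomerase of dividing cells, at 57.6 and 579 CPM. PCNA, the replication clamp, was at 85.5 CPM in HCC827ER and 236 in HCC827, and the mitotic cyclin CCNB1 at 91.0 and 255. CDK4, the member of highest level, was higher, at 4755 CPM in HCC827ER and 3040 in HCC827, 1.56-fold (1.55 to 1.58). CDKN1C, the inhibitor p57, was the 1 member at least 2-fold higher, at 8.29 CPM in HCC827ER and 0.724 in HCC827. The other inhibitors were closer to level: CDKN1A was at 6.67 CPM in HCC827ER and 8.89 in HCC827, CDKN1B at 66.9 and 53.8, and CDKN2A at 391 and 290.4. In HCC827GR, MKI67 was at 339.8 CPM and TOP2A at 285 CPM.

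Apoptosis regulators had 10 of 31 passing members at least 2-fold higher in HCC827ER and 3 at least 2-fold lower. BCL2, which blocks mitochondrial apoptosis, had 185 counts in HCC827ER and 2 in HCC827, a ratio of CPM of 98.7 (26.9 to 821), with 15 CPM in HCC827GR. Its relative BCL2L1 (BCL-XL) was at 495 CPM in HCC827ER and 289 in HCC827, whereas MCL1 was at 157 and 312. BCL2L11 (BIM), the death gene that EGFR signalling holds down, was at 31.2 CPM in HCC827ER and 45.2 in HCC827. The pro-death members BID and BBC3 (PUMA) were at 47.0 and 9.90 CPM in HCC827ER, against 11.3 and 1.18 CPM in HCC827.

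Antigen presentation was higher, with 13 of 26 passing genes at least 2-fold higher in HCC827ER and 3 at least 2-fold lower (median 1.00, and 0.95 centred on transcript length). B2M, the shared light chain of class I molecules, was at 1875 CPM in HCC827ER and 343 in HCC827, 5.47-fold higher (5.31 to 5.63). The heavy chain genes HLA-B and HLA-C, which are polymorphic near copies, were at 377 and 412 CPM in HCC827ER, against 56.2 and 152 CPM in HCC827. The peptide pump TAP1 was at 69.3 CPM in HCC827ER and 25.2 in HCC827, but its partner TAP2 at 63.7 and 94.3. CD274 (PD-L1), the ligand that restrains T cells, was lower, at 4.28 CPM in HCC827ER and 17.4 in HCC827, 4.06-fold (3.06 to 5.45). Interferon response genes were divided, with 9 of 36 at least 2-fold higher in HCC827ER and 11 at least 2-fold lower and a median of 0.01: GBP2 was at 86.1 CPM in HCC827ER and 13.7 in HCC827, and OAS3, which senses viral RNA, at 25.1 and 85.2.

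Ribosomal protein genes were higher. Of 84 passing ribosomal protein genes 68 (81.0%) were at least 2-fold higher in HCC827ER and 0 lower, with a median of 1.29. RPS2, for example, was at 11928 CPM in HCC827ER and 4488 in HCC827, and RPS27 at 3222 and 745; pseudogenes of this family can share reads. Of 48 nuclear-coded subunits of oxidative phosphorylation 24 were at least 2-fold higher and 0 lower, with a median of 1.01. NDUFA13 of complex I was at 239.6 CPM in HCC827ER and 65.7 in HCC827, and COX5B of complex IV at 485 and 168. The ferritin chains FTH1 and FTL, which store iron, were at 9175 and 4849.5 CPM in HCC827ER, against 4369 and 1325 CPM in HCC827. GAPDH, a glycolytic enzyme often taken as a constant, was at 20943 CPM in HCC827ER and 10441 in HCC827, and over the glycolysis and hypoxia list 7 of 33 passing genes (21.2%) were higher and 2 lower by at least 2-fold, near the 18.1% of all genes on the higher side. Other abundant transcripts differed in the opposite direction: the chaperone HSP90AA1 was at 674 CPM in HCC827ER and 2959 in HCC827, and the tubulin TUBA1B at 1997 and 3760.1, less than 2-fold apart. MTRNR2L8 and MTRNR2L2, nuclear copies of a mitochondrial ribosomal RNA gene that can take reads from it, were among the largest gains in CPM.

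These lists hold short transcripts, and in this pair the ratio followed transcript length. Genes were cut into 10 equal bins by the longest annotated transcript, which was known for 99.3% of passing genes. The median log2 ratio was 0.77 in the bin of the shortest (up to 1629 bases) and -0.81 in that of the longest (from 7640 bases), and it was lower in each bin than in the bin before. By the 2-fold threshold 39.6% of the shortest genes were higher and 7.56% lower, and of the longest 7.48% and 40.9%. PC-9ER against PC-9 ran from 0.36 to -0.44 over the same bins, and HCC827GR against HCC827 from -0.12 to 0.10. Centred on 0 within bins, the ribosomal protein median was 0.81 with 31 genes at least 2-fold higher, the oxidative phosphorylation median 0.55 with 8, and the counts over all genes were 2021 higher and 1979 lower. The longest annotated transcript need not be the one expressed, so centring may not remove the whole trend. RPS27L, for example, was binned at 6434 bases, and its log2 ratio rose from 2.55 to 3.07 when centred. The medians of plasma proteins (3.82), complement (2.01), cytokines (1.36), epithelial genes (-1.46) and ERK output (-0.91) kept their sign.

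**Figure D3:**
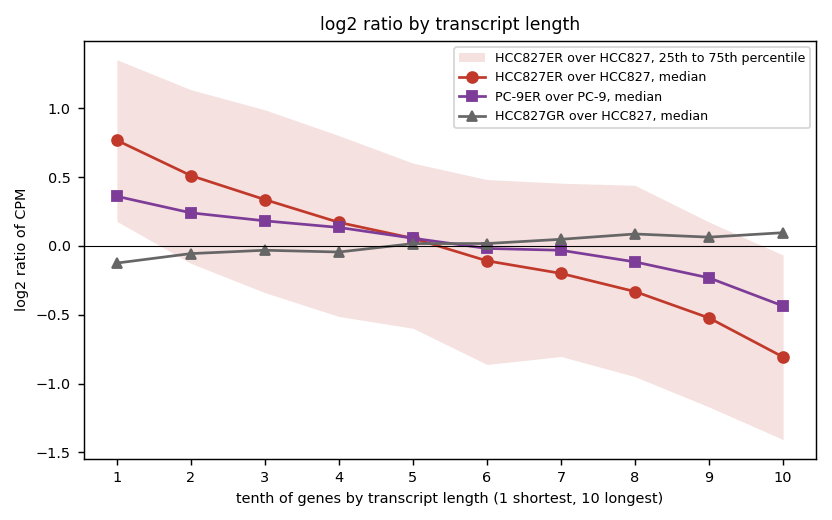
Median log2 ratio (y axis) in 10 bins of genes by transcript length, shortest at the left (x axis), for HCC827ER over HCC827 in red with the 25th to 75th percentile shaded, PC-9ER over PC-9 in purple and HCC827GR over HCC827 in grey. The red line runs from 0.77 to -0.81 and the purple line from 0.36 to -0.44, while the grey line stays between -0.12 and 0.10.

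**Figure D4:**
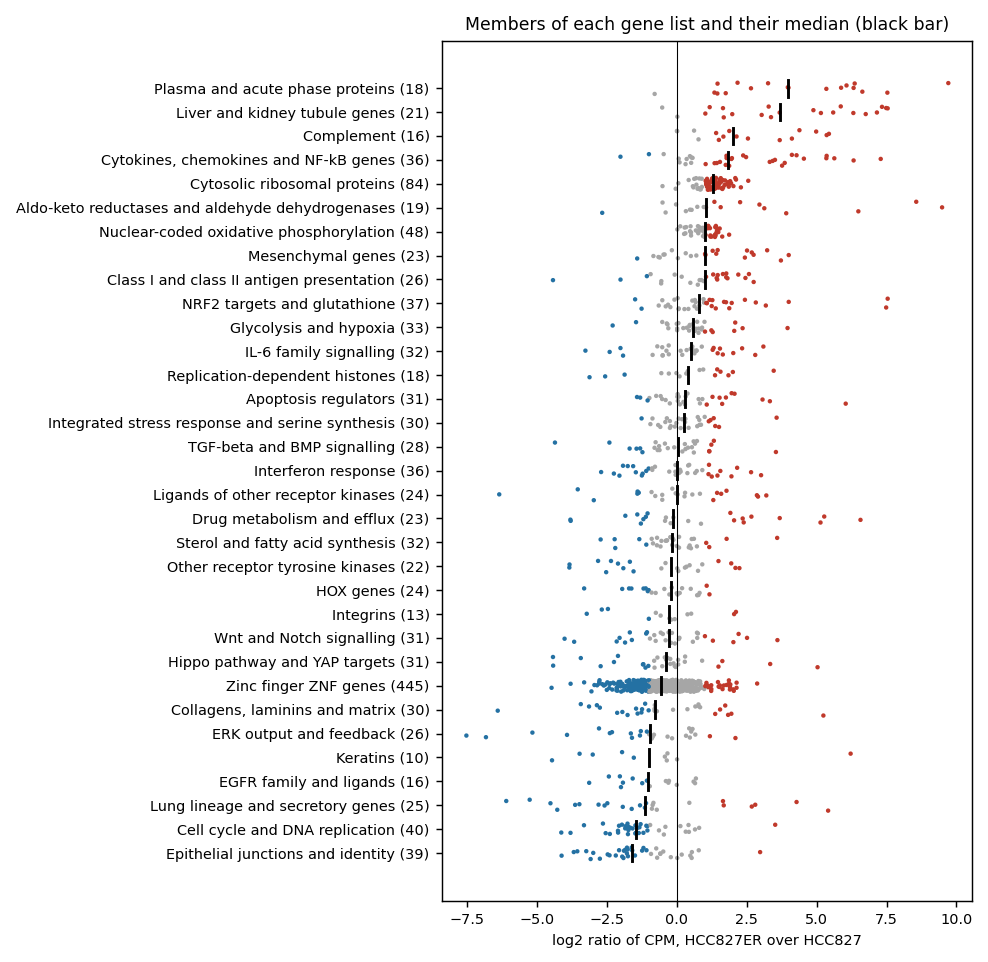
Log2 ratio of HCC827ER over HCC827 (x axis) for every passing member of each gene list (y axis, number passing in brackets), with the list median as a black bar, genes at least 2-fold higher in red and at least 2-fold lower in blue. Medians run from 3.98 for plasma and acute phase proteins to -1.62 for epithelial junctions and identity, against 0.00 over all genes.

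By position, 2 stretches of the genome are described next, with the values of HCC827GR beside them, whose ratios use the same HCC827 library. The first is the neighbourhood of EGFR, known to be amplified in HCC827. SEC61G, next to EGFR, was at 1924 CPM in HCC827ER, 115 in HCC827GR and 1851 in HCC827. VOPP1 was at 1638 CPM in HCC827ER, 216 in HCC827GR and 2151 in HCC827, and LANCL2 at 334, 73.1 and 521 CPM in the same order. In HCC827ER these 3 neighbours thus differed from HCC827 by less than 2-fold while EGFR itself was 4.01-fold lower. EGFR is among the longest transcripts, and centred on transcript length its log2 ratio was -1.20. The 3 neighbours were not centred, so the part of transcript length in this contrast was not tested. In HCC827GR the neighbours and EGFR were all more than 4-fold lower. Of the 10 neighbours, 0 were higher and 3 lower by at least 2-fold in HCC827ER (median -0.75), and 6 were at least 2-fold lower in HCC827GR (median -2.18). DNA copy number was not measured.

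The second stretch is on chromosome 17, from TADA2A to MED1. It holds the run from DUSP14 to LASP1, whose median of 1.55 was the highest of the listed runs of neighbouring genes. Its counts in HCC827ER therefore describe the stretch and support nothing more. Of 26 genes 16 were at least 2-fold higher in HCC827ER and 4 at least 2-fold lower, with a median of 1.31. The shares of all genes were 18.1% and 19.4%. In HCC827GR against HCC827, 17 were at least 2-fold higher and 2 lower, with a median of 1.65. There the shares of all genes were 7.91% and 9.47%. MRPL45, a mitochondrial ribosomal protein, was at 728 CPM in HCC827ER, 942 in HCC827GR and 113 in HCC827. DUSP14, a phosphatase, was at 786 CPM in HCC827ER, 849 in HCC827GR and 143 in HCC827. RPL23, the ribosomal protein gene with one of the largest gains in CPM, was at 6702 CPM in HCC827ER, 4309.5 in HCC827GR and 1372 in HCC827. GPR179, a gene of the retina, was at 25.6 CPM in HCC827ER, 0.494 in HCC827GR and 0.197 in HCC827.

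**Figure D5:**
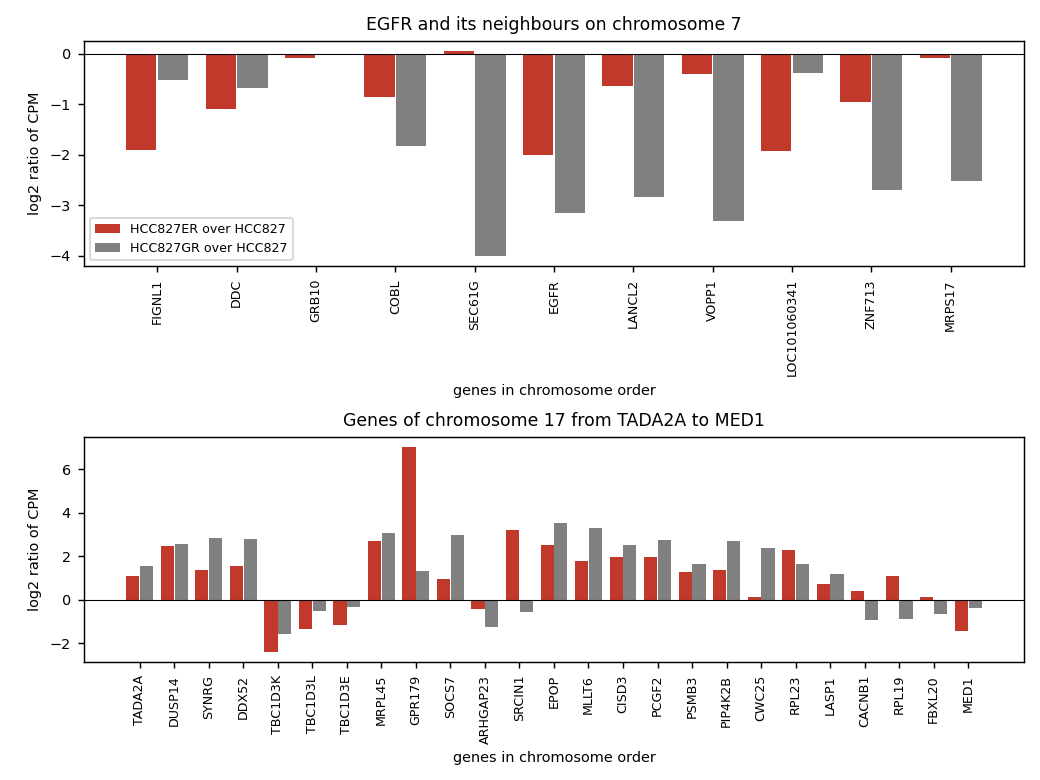
Bars give the log2 ratio (y axis) of genes in chromosome order (x axis) around EGFR (upper panel) and from TADA2A to MED1 on chromosome 17 (lower panel, with 1 gene of the stretch not drawn), for HCC827ER over HCC827 in red and HCC827GR over HCC827 in grey. SEC61G and VOPP1 stand at 0.06 and -0.39 in HCC827ER, and most genes of the lower panel are above 0 in both lines.

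Elsewhere, the lowest median over 21 neighbouring genes on an autosome was in the zinc finger cluster of chromosome 19 from ZNF253 to ZNF724, at -1.66, with 17 of 21 genes at least 2-fold lower in HCC827ER and 0 higher. The same run had a median of 0.07 in HCC827GR against HCC827 and 0.30 in PC-9ER against PC-9, and centred on transcript length it was -1.58 in HCC827ER. Over all ZNF-named zinc finger genes, a list added after the values were seen, 132 of 445 passing genes were at least 2-fold lower in HCC827ER and 27 at least 2-fold higher, with a median of -0.56. Many of these genes encode transcriptional repressors of the KRAB family, and their sequences are similar enough to share reads. By whole chromosome, the highest median was that of chromosome 22 (0.50) and the lowest that of chromosome 18 (-0.39).

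PC-9ER and PC-9 share no library with this pair. Of the genes at least 2-fold higher in HCC827ER, 210 (9.15%) were so in PC-9ER against PC-9 as well, against 5.73% of all genes tested in that pair, and they make up 29.9% of the 703 higher in PC-9ER, against 18.1% of all genes in the HCC827ER pair. Of those at least 2-fold lower, 335 (13.7%) were shared, against 7.8% of all genes, or 35% of the 957 lower in PC-9ER, against 19.4%. Both pairs share the trend with transcript length given above, and its part in the overlap was not tested. Opposite calls were fewer. Of the genes higher in HCC827ER, 116 (5.06%) were lower in PC-9ER, against 7.8% of all genes. Of those lower in HCC827ER, 96 (3.91%) were higher in PC-9ER, against 5.73%. AKR1C2 was at 2489 CPM in PC-9ER and 63.9 in PC-9, and AKR1C3 at 367 and 26.0. VIM was at 163 CPM in PC-9ER and 5.09 in PC-9. On the lower side, DUSP6 was at 7.05 CPM in PC-9ER and 90.7 in PC-9, and EGR1 at 0.168 and 2.98. Members of the inflammatory groups were divided. SAA1 was at 61.6 CPM in PC-9ER and 20.1 in PC-9, CFB at 119 and 34.5, C1S at 78.4 and 31.5, IL32 at 43.8 and 11.6, and IL6 at 20.9 and 1.37. C3 and ICAM1, both higher in HCC827ER, were lower in PC-9ER. C3 was at 359 CPM in PC-9ER and 793 in PC-9, and ICAM1 at 156 and 476. KRT17 was at 19.4 CPM in PC-9ER and 1.37 in PC-9. No counts were found for some acute phase genes: CRP, FGA, FGB and FGG were at 0 counts in PC-9ER and in PC-9. ALDH1A1 had 0 CPM in PC-9ER and 0.0572 in PC-9, and MKI67 was at 356 and 527 CPM. Both ER libraries being in the second table, what the ER lines share and what the table shares cannot be told apart.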

How the data were processed

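The deposited values are expected counts per gene, estimates that need not be whole (13.4% of the HCC827ER values and 14.0% of the HCC827 values were not) and that were rounded here. The submitters' processing notes name HISAT2 2.0.4, Cuffdiff and GRCh38.p13; how the counts were made, and whether by strand, is not stated there. Of the genes, 854 were listed in the first table alone and 306 in the second alone. TMM factors came from edgeR 4.0.16 over all 6 libraries and the 16000 joined genes (0.824 for HCC827ER and 1.05 for HCC827). CPM is the rounded count over the joined total times this factor. A gene passed at 1 CPM or more in the higher library and was called at a log2 ratio of 1 either way, with counts under 3 raised to 3. No p-values were computed, since each line has 1 library. The calculation was tested on simulated counts. Intervals are Clopper-Pearson intervals at 95%.

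Transcript lengths are those of the longest GENCODE v29 transcript by gene ID, and promoters come from RefSeq GRCh38.p14; coordinates of other genes are not given because the builds differ. Genes were named by a rule: EGFR, MET, ERBB2, ERBB3, YAP1, WWTR1 and TFF3, the 12 highest and 12 lowest ratios at 20 CPM or more, the 8 largest CPM differences each way, and in each list up to 4 members each way at 10 CPM or more and the 2 of highest level; members named for their role alone were picked after their values were seen, and some genes are not reported here. The pair, the 33 gene lists and the 5 lists added later were chosen with earlier results of these data known. Alternatives were other scalings, filters, priors and thresholds, and centring by transcript length, which was added after the data had been seen.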

Additional observations from a re-analysis of the deposited data

Results flagged for a closer look

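ERP27, a chaperone of the endoplasmic reticulum, had a log2 ratio of -4.87 in HCC827ER over HCC827 and of 1.01 in PC-9ER over PC-9, at 1.83 CPM in HCC827ER and 53.5 CPM in HCC827. TMEM140, a membrane protein, went the other way, with 7.30 in HCC827ER over HCC827 and -1.25 in PC-9ER over PC-9, at 52.0 CPM in HCC827ER and 0.329 CPM in HCC827. Both were singled out because the derived lines of 2 parents moved in opposite directions; the difference was not tested, and both PC-9 values are low.

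H2AC19, a histone gene with near-identical copies, is listed in the second table alone and so entered no comparison. It had 417 counts (29.3 CPM) in HCC827ER and 0 in PC-9ER, and no value is listed for HCC827.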

How the results depend on the processing

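The 2294 higher and 2453 lower genes became 1449 and 3610 without the TMM factor, 1748 and 3197 with ribosomal protein genes left out of the totals, and 725 and 686 at a log2 ratio of 2, which is a stricter threshold by construction. TMM on the pair, DESeq2 size factors, a prior count of 2, a minimum of 5 CPM, no filter and centring by transcript length gave 1857 to 2610 higher and 1979 to 2709 lower. The median of all genes moved by -0.34 without the TMM factor and by -0.22 without ribosomal protein genes, so ratios nearer to 0 than this have no settled sign. Centring by length turned the sign of some larger ratios under 2-fold too, such as FASN (-0.72, and 0.09 centred) and RPL7 (0.70, and -0.07 centred). All 218 named genes past 2-fold kept their direction under each alternative. This was fixed in advance, since no scaling or centring here moved a log2 ratio by as much as 1. Of the 218, 206 stayed past 2-fold without the TMM factor and 189 centred by length. The median of fibroblast markers, -1.14 from COL1A1 alone, was 0.0931 with no filter, where genes at the floor enter. No paired analysis was possible because each line has 1 library, and for the same reason no replicate could be left out. Depth limits low genes: at 1 to 3 counts in HCC827 a ratio is known only within its wide interval.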

Other observations

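In TGF-beta and BMP signalling 5 of 28 passing genes (17.9%) were higher and 6 (21.4%) lower in HCC827ER by at least 2-fold. These are near the 18.1% and 19.4% of all genes. GDF15, a stress-induced secreted member of this family, was at 171 CPM in HCC827ER and 14.7 in HCC827, 11.6-fold higher (10.2 to 13.4). The BMP targets ID1 and ID3 differed in opposite directions, with ID1 at 42.3 CPM in HCC827ER and 105 in HCC827, and ID3 at 147 and 59.0 CPM. Of the stress response and serine synthesis genes 6 of 30 were higher and 1 lower. The stress factor ATF4 was at 934 CPM in HCC827ER and 375 in HCC827, but its target ASNS was at 73.4 and 59.6 CPM and the chaperone HSPA5 at 507 and 931. In Wnt and Notch signalling 6 of 31 were higher and 9 lower, with the ligand WNT7B at 30.6 CPM in HCC827ER and 137 in HCC827, and the Notch target HES1 at 8.36 and 30.3.

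Sterol and fatty acid synthesis had 4 of 32 genes (12.5%) higher and 5 (15.6%) lower, each under the share of all genes. The sterol-regulated genes HMGCS1 and STARD4 were at 59.8 and 4.84 CPM in HCC827ER, against 152 and 22.4 CPM in HCC827, while TM7SF2, a sterol reductase, was at 63.3 and 5.27 CPM. HOX genes, which record position along the body, had 2 of 24 higher and 8 lower, and HOXA10 was level at 30.3 CPM in HCC827ER and 29.8 in HCC827. Among integrins 2 of 13 (15.4%) were higher and 4 (30.8%) lower, with ITGA2, a collagen receptor chain, at 4.07 CPM in HCC827ER and 38.2 in HCC827. Of 4 neural markers 3 were higher and 0 lower, among them TUBB3, a neuronal tubulin, at 613 CPM in HCC827ER and 191 in HCC827. Of keratins 1 of 10 was higher and 5 lower, of cancer-testis antigens 1 of 5 and 2, and of replication-dependent histones, whose copies share reads, 6 of 18 and 3.

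In a broader leukocyte list CD68, a lysosomal protein of macrophages also made by other cells, was at 154 CPM in HCC827ER and 54.2 in HCC827, and ITGAM had 23 counts in HCC827ER and 4 in HCC827; the other 8 listed members were under 1 CPM in both. No endothelial marker reached 1 CPM. SYN3, a neuronal gene that holds TIMP3 on its other strand, was at 735 CPM in HCC827ER and 1930.3 in HCC827, with TIMP3 listed at 0 in both, so which of the genes its counts belong to is uncertain. Besides H2AC19, the second table alone lists GC, a vitamin D carrier made by the liver, with 56 counts in HCC827ER.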
